A study of Mus musculus with 4 samples.

Results

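The 8 genes described here, Aldoa, Tpi1, Gapdh, Pgk1, Pgam1, Eno1, Pkm and Ldha, encode enzymes of the lower part of glycolysis and the enzyme that turns its product into lactate. They were chosen by name as the rows of the deposited gene table that carry these symbols, and all 8 were found among its 42977 rows. The rule that picks them uses names and no measured value. The libraries are RNA sequencing of exosomes, small vesicles shed into the culture medium, from bone marrow mesenchymal stem cells (MSCs) of male SD rats aged 6 to 8 weeks, used at passages 3 to 4. For the 2 MSC-Exo libraries the cells received DMSO, the solvent, and for the 2 MSCATV-Exo libraries they received 1 µmol/L atorvastatin (ATV), a statin that blocks cholesterol synthesis. The labels give the exposure as 24 h in one place and 48 h in another, describe both ultracentrifugation and a commercial isolation reagent, register the samples as mouse although the protocol and the build are of rat, and do not say whether the libraries of a group came from different animals or cultures. SDs, SEs and p-values thus rest on library-to-library spread, which may be technical. The SEs and p-values also draw on the spread of other genes, not of 1 gene alone.

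Glycolysis breaks glucose down to pyruvate in the cytosol. Aldolase cleaves fructose bisphosphate into triose phosphates, triosephosphate isomerase interconverts them, and the enzymes that follow oxidise, rearrange and dephosphorylate the product, making NADH and ATP. Lactate dehydrogenase then regenerates NAD+ by reducing pyruvate. The transcripts of these enzymes are abundant in most proliferating cells, Gapdh is a common reference gene for normalising, and several of them have many processed pseudogenes in rodent genomes.

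The gene counts summed to 5350295 and 5355098 in MSC-Exo (replicate 1, then 2, as in all pairs of values below) against 5947020 and 5598378 in MSCATV-Exo. Where a gene has no count, up to 3 counts remain possible, or 0.504 to 0.561 CPM, counts scaled to the library total. These floors and the Poisson intervals below cover counting error only. Levels are given as deposited RPKM, reads scaled by gene length and by the library's gene counts, so that genes can be compared per length. Rows of olfactory receptors, a gene family MSCs are not known to express, served as a measured background, with 1188 rows, a median of 1.71 to 2.47 RPKM per library and a 95th percentile of 9.13 to 10.1 RPKM.

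Transcripts of 7 of the 8 enzymes were present in every library above that 95th percentile. Gapdh was the most abundant, Eno1 and Aldoa followed, and Pgam1 had the lowest mean of the 7. Tpi1 was listed at 0 in all 4 libraries. Among all 22633 protein-coding rows, 606 (2.68%) stood above the olfactory 95th percentile in all 4 libraries, and among the 1188 olfactory rows 0 (0%) did. The 7 genes ranked between 50 (Gapdh) and 404 (Pgam1) of the 22633 protein-coding rows by mean RPKM.

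**Figure D1:**
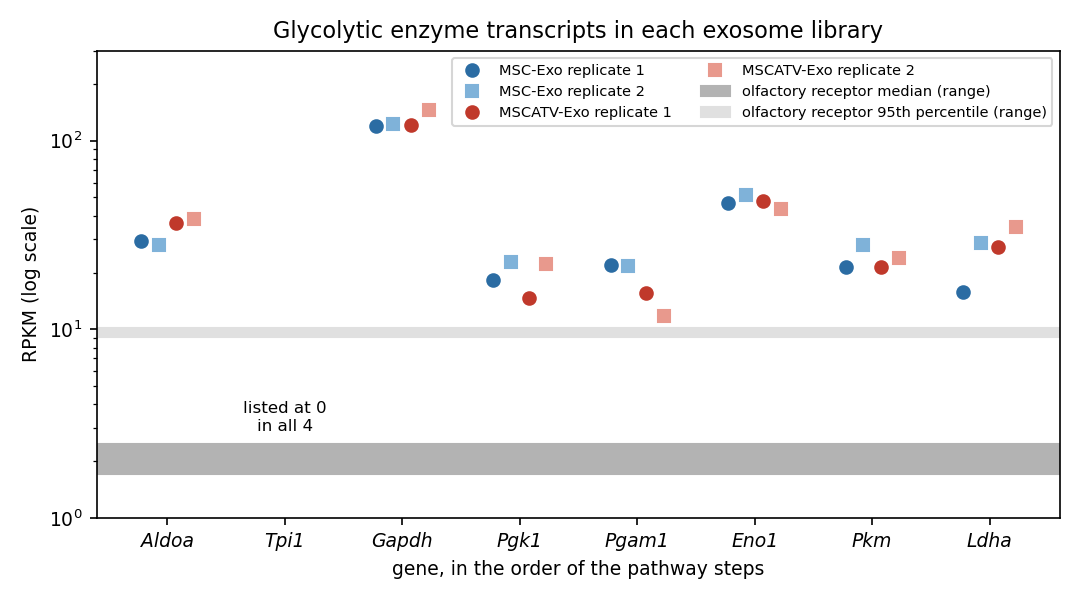
RPKM (log scale) of the 8 genes in the order of the pathway steps, 1 point per library, with the range over libraries of the olfactory receptor median and 95th percentile as grey bands. Gapdh lies between 120 and 146 RPKM, the other 6 genes with counts lie between 11.8 and 51.8 RPKM, and Tpi1 is listed at 0.

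Between the groups, Aldoa was higher and Pgam1 lower in both MSCATV-Exo libraries, on RPKM as on CPM. Gapdh and Ldha were higher in CPM but overlapped in RPKM, and Pgk1, Eno1 and Pkm overlapped on both scales. No member passed the test. By edgeR's quasi-likelihood test with Benjamini-Hochberg adjustment over 33480 genes, 0 of the 7 tested members were called, and 0 of all genes tested (0%). The adjusted p was 0.9999 for each of the 7. At an unadjusted p under 0.05 in edgeR stood 0 of the 7 members and 1236 of all genes (3.69%). The lowest unadjusted p of a member in edgeR was that of Aldoa, 0.0810. DESeq2 called 106 genes (0.317%) and 0 of the 7 members. Without adjustment, DESeq2 gave Aldoa a p of 0.0152 and each other tested member a p above 0.05. The share of all genes under 0.05 without adjustment was not computed for DESeq2.

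The first enzyme of the series, Aldoa (chromosome 1, 198228387 to 198233988, minus strand, build Rnor_6.0), is the aldolase found in muscle and most other tissues. Its counts were 340 and 324 in MSC-Exo against 472 and 466 in MSCATV-Exo. In RPKM it stood at 29.3 and 27.9 in MSC-Exo against 36.6 and 38.3 in MSCATV-Exo. Both MSCATV-Exo libraries were higher than both MSC-Exo libraries, and replicates lay close together in each group. In CPM scaled with TMM factors the means were 60.2 ± 1.46 (SD, n = 2) and 84.7 ± 2.33 (SD, n = 2), a log2 fold change (MSCATV-Exo over MSC-Exo) of 0.49 ± 0.26 (SE), or 1.41-fold. The lowest adjusted p of any member in any alternative was that of Aldoa in DESeq2, 0.428. Leaving out each library in turn gave log2 fold changes of 0.47 to 0.53. Scaled to 343 abundant protein-coding genes (mean of at least 20 RPKM), the value was 0.26, and with the reads of its 11 gene-like copies added it was 0.17. The copies held 413 and 368 counts in MSC-Exo against 329 and 365 in MSCATV-Exo, so the 0.17 is in large part that of the copies.

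Gapdh (chromosome 4, 157676336 to 157680322, minus strand) oxidises glyceraldehyde phosphate and makes NADH. It had 1043 and 1061 counts in MSC-Exo against 1171 and 1323 in MSCATV-Exo. Its levels were 120 and 122 RPKM in MSC-Exo against 121 and 146 RPKM in MSCATV-Exo. In RPKM the groups overlapped, with MSCATV-Exo replicate 2 alone above the rest. In CPM, which carry the TMM factors, they did not overlap, at 191 ± 4.18 (SD, n = 2) and 225 ± 15.3 (SD, n = 2). The log2 fold change was 0.24 ± 0.20 (SE). It was 0.01 when scaled to abundant genes and -0.13 with the reads of its 215 gene-like copies added. The copies held 7059 and 6508 counts in MSC-Exo against 5654 and 6219 in MSCATV-Exo. The -0.13 is therefore mostly that of the copies and gives no direction for Gapdh itself.

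Pgk1 (chromosome X, 77263399 to 77279373, plus strand) makes ATP from bisphosphoglycerate. Its counts were 163 and 203 in MSC-Exo against 145 and 207 in MSCATV-Exo, and its levels 18.4 and 22.8 against 14.7 and 22.3 RPKM. Replicate 2 was the higher library in both groups, and the groups overlapped. The log2 fold change was -0.07 ± 0.35 (SE), and it ran from -0.32 to 0.15 as single libraries were left out, so no direction can be given for Pgk1.

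Pgam1 (chromosome 1, 261158204 to 261165814, plus strand) moves the phosphate group within phosphoglycerate. It had 211 and 209 counts in MSC-Exo against 168 and 119 in MSCATV-Exo. In RPKM it stood at 21.8 and 21.6 in MSC-Exo against 15.7 and 11.8 in MSCATV-Exo. The MSC-Exo libraries were nearly equal, both MSCATV-Exo libraries were lower, and those 2 differed from each other. The CPM means were 38.1 ± 0.116 (SD, n = 2) and 26.0 ± 6.74 (SD, n = 2), a log2 fold change of -0.55 ± 0.35 (SE), or 0.682-fold. Leaving out MSCATV-Exo replicate 1 gave -0.84, and leaving out replicate 2 of that group gave -0.30. With the reads of its 10 gene-like copies added the log2 fold change was -0.03. The copies held 372 and 420 counts in MSC-Exo against 462 and 441 in MSCATV-Exo, more than Pgam1 in every library. The -0.03 is therefore mostly that of the copies and gives no size of change for Pgam1 itself.

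Eno1 (chromosome 5, 167288223 to 167299610, plus strand) forms phosphoenolpyruvate. Its counts were 494 and 547 in MSC-Exo against 564 and 482 in MSCATV-Exo. Its levels were 46.8 and 51.8 RPKM in MSC-Exo against 48.1 and 43.7 RPKM in MSCATV-Exo. Of the 7 genes with counts it had the smallest SD of log2 CPM over the 4 libraries, 0.127. The groups overlapped, and the log2 fold change was 0.00 ± 0.25 (SE), with -0.13 to 0.13 as single libraries were left out.

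Pkm (chromosome 8, 64480963 to 64502957, plus strand) makes pyruvate and ATP. It had 316 and 415 counts in MSC-Exo against 353 and 370 in MSCATV-Exo, or 21.3 and 28.0 against 21.4 and 23.9 RPKM. Both MSCATV-Exo libraries lay between the 2 MSC-Exo libraries. The log2 fold change was -0.02 ± 0.28 (SE), and it was 0.20 without MSC-Exo replicate 2 and -0.22 without MSC-Exo replicate 1. The gene table gives 1 row for the whole gene, so the splice forms of Pkm were not analysed here.

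Ldha (chromosome 1, 102900288 to 102909713, plus strand) reduces pyruvate to lactate. Its counts were 155 and 283 in MSC-Exo against 299 and 361 in MSCATV-Exo. In RPKM it stood at 15.7 and 28.6 in MSC-Exo against 27.2 and 34.9 in MSCATV-Exo. The low library was MSC-Exo replicate 1, while MSC-Exo replicate 2 lay above MSCATV-Exo replicate 1 in RPKM and just below it in CPM. The exact Poisson 95% intervals of the 2 MSC-Exo counts, 132 to 181 and 251 to 318, did not meet, so these replicates differed by more than counting error. The CPM means were 39.8 ± 16.8 (SD, n = 2) and 59.5 ± 6.82 (SD, n = 2), a log2 fold change of 0.58 ± 0.34 (SE). Of the 7 genes Ldha had the largest SD of log2 CPM over the 4 libraries, 0.523. Without MSC-Exo replicate 1 the value was 0.20, and without MSC-Exo replicate 2 it was 1.09. With the reads of its 31 gene-like copies added the log2 fold change was 0.06. The copies held 669 and 544 counts in MSC-Exo against 555 and 517 in MSCATV-Exo, more than Ldha in every library. The 0.06 is therefore mostly that of the copies and gives no size of change for Ldha itself.

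As a group, 4 of the 7 tested members had a log2 fold change above 0 and 3 below, against 49.4% above 0 over all genes tested. One of the 4 was Eno1, whose value was below 0.01. The members' median was 0.00 and the median of all genes tested was -0.01. Abundant protein-coding genes differed from that background: of the 343 with a mean of at least 20 RPKM, members left out, 75.5% had a log2 fold change above 0, with a median of 0.24. In CPM the groups did not overlap for 3 members that were higher in MSCATV-Exo (Aldoa, Gapdh and Ldha), against 16.1% of all genes and 42.3% of the abundant genes. They did not overlap for 1 member that was lower (Pgam1), against 17.4% of all genes and 8.45% of the abundant genes. Pgam1 (17.7 RPKM) and Pgk1 (19.5 RPKM) themselves lie below the 20 RPKM that defines the abundant genes. Counting both directions, 4 of 7 members had groups apart, against 33.5% of all genes. On RPKM as deposited, Aldoa and Pgam1 alone kept groups that did not overlap. Factors from abundant genes gave log2 fold changes of -0.29 for Pgk1, -0.25 for Pkm, -0.23 for Eno1 and 0.37 for Ldha. Adding the copies gave -0.24 for Pgk1 and -0.10 for Pkm. The copies of Pkm held more counts than Pkm in every library, and those of Pgk1 more than Pgk1 in all but MSCATV-Exo replicate 2. With total counts in place of the TMM factors the median of all genes moved to -0.11, and with factors from abundant genes to -0.24.

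**Figure D2:**
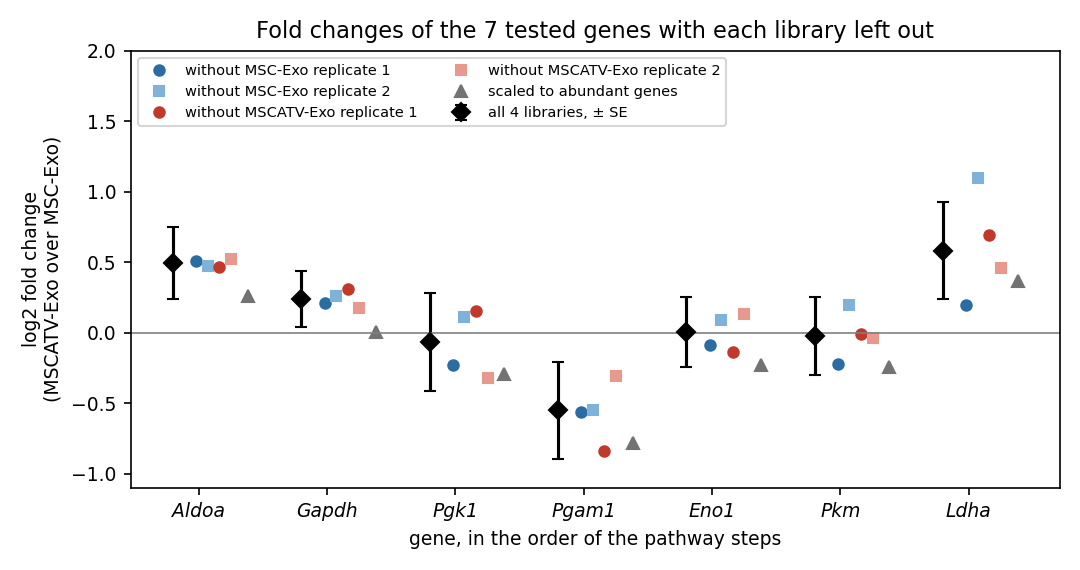
Log2 fold change (MSCATV-Exo over MSC-Exo) of the 7 tested genes: diamonds give the fit to all 4 libraries ± SE, coloured points the fits with 1 library left out, and triangles the fit scaled to abundant genes. Aldoa stays between 0.47 and 0.53 as libraries are left out, while Ldha runs from 0.20 to 1.09.

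In the authors' deposited table, 3 of the 7 members had a q under 0.05, against 34.3% of its 38021 genes and 51.6% of the abundant genes. The authors' deposited table gives Aldoa a log2 ratio of 0.39 (q = 0.00121), Ldha 0.49 (q = 0.000945) and Pgam1 -0.66 (q = 0.000275). For Gapdh the authors' deposited table gives a log2 ratio of 0.14 and a q of 0.0651. The test behind those q-values is not given in the sources used here, and a share of calls near that of other abundant genes says nothing particular about the enzymes.

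Levels of the enzymes relative to each other were compared within libraries, which needs no scaling between them. By mean RPKM over the 4 libraries the order was Gapdh (127), Eno1 (47.6), Aldoa (33.0), Ldha (26.6), Pkm (23.6), Pgk1 (19.5) and Pgam1 (17.7). The ranges of Gapdh and Eno1 did not overlap, nor did those of Eno1 and Aldoa, and each pair kept its order in 4 of 4 libraries. From Aldoa downward the ranges of neighbours overlapped, and Pgk1 exceeded Pgam1 in 2 of 4 libraries. Gapdh alone made up 44.0% and 40.3% of the summed RPKM of the 7 genes in MSC-Exo against 42.6% and 45.5% in MSCATV-Exo. The summed RPKM was 274 and 303 in MSC-Exo against 285 and 321 in MSCATV-Exo, and these overlapped between the groups. Together the 7 genes held 0.0509% to 0.0594% of the gene counts of a library.

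The pairs set against each other were chosen after the values were seen. Among the 6 ratios computed, Aldoa over Pgam1 differed most between the groups. The RPKM of Aldoa was 1.34 and 1.29 times that of Pgam1 in MSC-Exo against 2.34 and 3.26 times in MSCATV-Exo, so the mean ratio in MSCATV-Exo was 2.13 times that in MSC-Exo. Relative to Gapdh, Aldoa stood at 0.243 and 0.228 in MSC-Exo against 0.301 and 0.263 in MSCATV-Exo. Pgam1 stood at 0.182 and 0.177 of Gapdh in MSC-Exo against 0.129 and 0.0808 in MSCATV-Exo. Groups did not overlap for any of these 3 ratios. For Aldoa over Pgam1 this follows from the separate groups of each of the genes in RPKM. Of single genes tested, 33.5% had groups apart in CPM, and no such share was computed for ratios. Eno1 over Gapdh did overlap, at 0.390 and 0.424 against 0.396 and 0.300. Ldha over Pkm, the enzymes on either side of pyruvate, was 0.736 and 1.02 in MSC-Exo against 1.27 and 1.46 in MSCATV-Exo. The ratios are given as a description, since a two-sided exact permutation test of 2 against 2 cannot go below p = 0.333, and no other test of them was run.

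Each of the 7 members with counts stood above its tissue isozymes in every library, by as little as 1.58 times for Pgam1 over Pgam2 in MSCATV-Exo replicate 2. Of the 12 isozymes 0 stood above the olfactory 95th percentile in all 4 libraries. Among the isozymes the highest mean levels were those of Pgam2, the muscle phosphoglycerate mutase (8.89 RPKM), Gapdhs, the sperm form (8.21), Aldoc, the brain aldolase (7.98), Eno3, the muscle enolase (7.49), and Pklr, the liver and red cell pyruvate kinase (7.09). Ldhb, the heart lactate dehydrogenase (5.71), Pgk2 of testis (5.26), Eno4 (5.11), Ldhc of testis (4.57) and Ldhal6b (2.96) were lower still. Eno2, the neuronal enolase, was listed at 0 in all 4 libraries. Gapdh made up 92.1% to 95.9% of the summed RPKM of Gapdh and Gapdhs. The share was smallest for Ldha, at 52.4% to 73.0% of its family, and for Pgam1, at 61.2% to 71.4%. These shares also depend on how many isozymes near the background each family holds, which differs between families. Of the 11 isozymes tested, 5 had a log2 fold change above 0 and 6 below, with a median of -0.24, and edgeR called 0. Directions in this and the lists that follow use TMM factors from all genes, and the move to -0.24 of the median of all genes with factors from abundant genes applies to each.

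Few other genes of glucose metabolism stood above the olfactory 95th percentile in all 4 libraries, a level that 2.68% of protein-coding rows passed. The median protein-coding row stood at 4.12 to 4.74 RPKM per library. List medians per library were 6.88 to 8.95 RPKM for upper glycolysis and 3.53 to 6.04 for transport and flux control. They were 5.60 to 9.22 for gluconeogenesis, 6.14 to 9.41 for the pentose phosphate pathway and 5.23 to 6.61 for pyruvate dehydrogenase and TCA cycle. In upper glycolysis, 1 of the 9 genes found stood above the olfactory 95th percentile in all 4 libraries, Gpi, the isomerase of glucose phosphate, at 12.9 and 12.7 RPKM in MSC-Exo against 17.0 and 18.4 in MSCATV-Exo. Its log2 fold change was 0.57 ± 0.33 (SE), and its groups did not overlap. The next by level was Pfkl, a phosphofructokinase (mean 9.20 RPKM). The list had 5 genes above 0 and 4 below, a median of 0.08, and 0 calls by edgeR.

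For transport of glucose and lactate and control of flux, 1 of 23 genes passed that level, Bsg, the partner protein of lactate transporters, at 14.9 and 13.6 RPKM in MSC-Exo against 16.9 and 24.3 in MSCATV-Exo. Bsg had a log2 fold change of 0.62 ± 0.35 (SE). Below it were Pfkfb3, which makes the activator of phosphofructokinase (10.4 RPKM, log2 fold change 0.31), and the transporter Slc2a6 (10.2 RPKM, log2 fold change -0.48). In this list 9 genes were above 0 and 14 below, with a median of -0.26 and 0 calls by edgeR. The neighbouring routes looked alike in level. Gluconeogenesis had 0 of 7 genes above the olfactory level, led by Pck1, G6pc3 and Pc, with 3 higher, 4 lower and a median of -0.18. The pentose phosphate pathway had 1 of 8, led by Pgd, Tkt and Taldo1, with 6 higher, 2 lower and a median of 0.25. Pyruvate dehydrogenase and the TCA cycle had 3 of 22, among them Mdh2 and Cs, with 15 higher, 7 lower and a median of 0.27. EdgeR called 0 genes in each of these lists, and DESeq2 called 0.

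**Figure D3:**
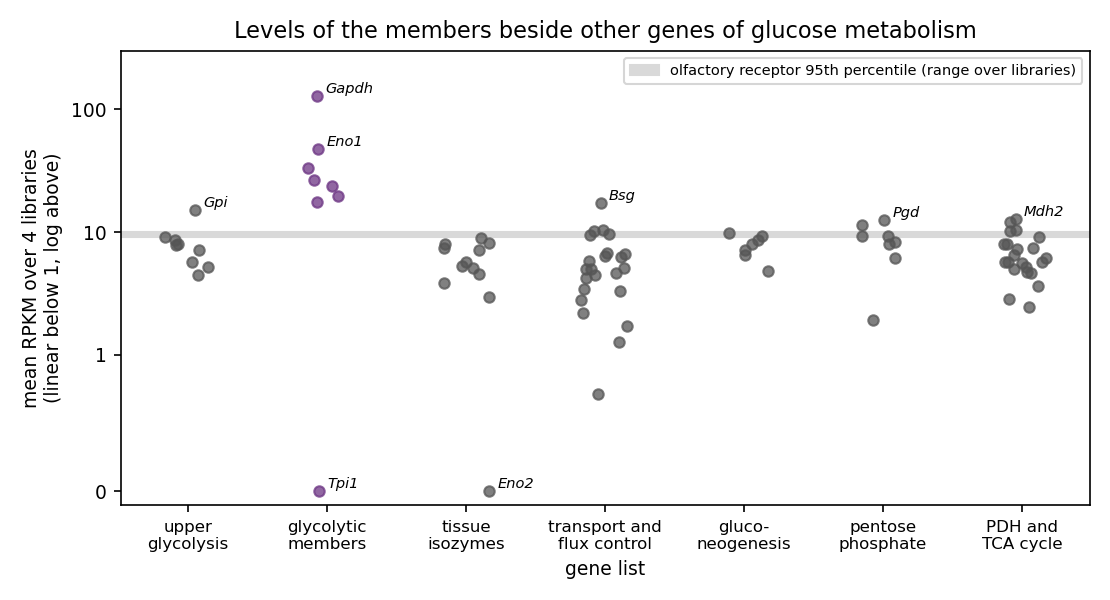
Mean RPKM over the 4 libraries (linear below 1, log above) of the 8 members and of 6 lists of other genes of glucose metabolism, 1 point per gene, with the range of the olfactory 95th percentile in grey. The 7 members with counts all lie above the band, while of the 12 isozymes 0 stood above the olfactory 95th percentile in all 4 libraries.

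Gapdh and Pgk1 are used as reference genes, so their spread was set beside that of 15 other reference genes tested. By the SD of log2 CPM over the 4 libraries, Polr2a, the large subunit of RNA polymerase II, varied least (0.0382). Gapdh was next (0.149), and Pgk1 ranked 6 of 17 (0.239). At a mean of 5.58 RPKM, Polr2a was below the olfactory 95th percentile. Of the 16 reference genes listed, 8 stood above that level in all 4 libraries. The most abundant of the reference genes, Actb (625 RPKM), Eef1a1 (476 RPKM) and Rplp0 (291 RPKM), had log2 fold changes of 0.24, 0.43 and 0.48, beside 0.24 for Gapdh, all with TMM factors from all genes. Of the 15 reference genes 11 were above 0 and 4 below, with a median of 0.31. EdgeR called 0 of them, and DESeq2 called Rplp0, a ribosomal protein (adjusted p = 0.0425).

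Cell type markers were counted in the same way. Of the 12 MSC markers 3, Col1a1, Itgb1 and Thy1, stood above the olfactory 95th percentile in all 4 libraries. The others did not, among them Eng (mean 7.52 RPKM), Nt5e (4.09) and Cd44 (3.53), and Col1a2 was listed at 0 in all 4. The summed RPKM of the MSC list was 128 and 151 in MSC-Exo against 121 and 141 in MSCATV-Exo, so the groups overlapped. No marker of leukocytes, erythroid cells, endothelium, hepatocytes, skeletal muscle, neurons or germ cells stood above that level in all 4 libraries. Leukocyte markers summed to 47.2 and 53.9 RPKM in MSC-Exo against 38.1 and 43.2 in MSCATV-Exo, and skeletal muscle markers to 41.7 and 44.5 against 25.3 and 38.6. Hepatocyte markers summed to 28.3 and 29.9 against 36.9 and 36.0. The groups did not overlap for these 3 sums and overlapped for the other 4 lists of other cell types. Over all genes tested, 33.5% had groups apart in CPM in either direction. That share is of single genes with TMM factors, and no share was computed for sums of RPKM. Since the markers summed were near the background, no difference in cell types is drawn from the sums. EdgeR called 0 markers in any list. The part of these levels in the members' values was not tested. In bulk libraries of vesicles, fewer vesicles or cells of a type and less RNA in each cannot be told apart.

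Many rows of the gene table are copies of the members. By their deposited names or descriptions 333 rows were pseudogenes of, or similar to, a member enzyme, 312 of them annotated as pseudogenes. Gapdh had 215, Eno1 32, Ldha 31, Pkm 20, Aldoa 11, Pgk1 and Pgam1 10 each, and Tpi1 4. Together the copies held 11345 and 10407 counts in MSC-Exo against 9424 and 10313 in MSCATV-Exo, more than the 2722 and 3042 against 3172 and 3328 counts of the members themselves. The Gapdh copies alone held 7059 and 6508 counts in MSC-Exo against 5654 and 6219 in MSCATV-Exo.

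Per length, the copies were low. Their median was 4.07 and 4.20 RPKM in MSC-Exo against 3.11 and 3.85 RPKM in MSCATV-Exo, beside a median of 2.18 to 2.99 RPKM per library for 7546 other pseudogene rows. The highest copy mean was 12.3 RPKM, none reached 20 RPKM, and 17 copies were at 0 in all 4 libraries. Every member with counts stood above each of its own copies, from 2.05 times its highest copy for Pgam1 to 10.4 times for Gapdh. Of the 285 copies tested 131 had a log2 fold change above 0, with a median of -0.11, and edgeR called 0. The 5 copies with the most counts were LOC289134, similar to Eno1, with 646 counts over the 4 libraries, and the Gapdh pseudogenes LOC108353005 (558), LOC108350945 (474), LOC108350114 (444) and LOC103693438 (425). How reads that match a member and its copies alike were counted is not given in the sources used here, so the division between them is uncertain, and adding the copies moved the log2 fold changes of 6 of the 7 tested members, all but Eno1, by more than 0.05.

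**Figure D4:**
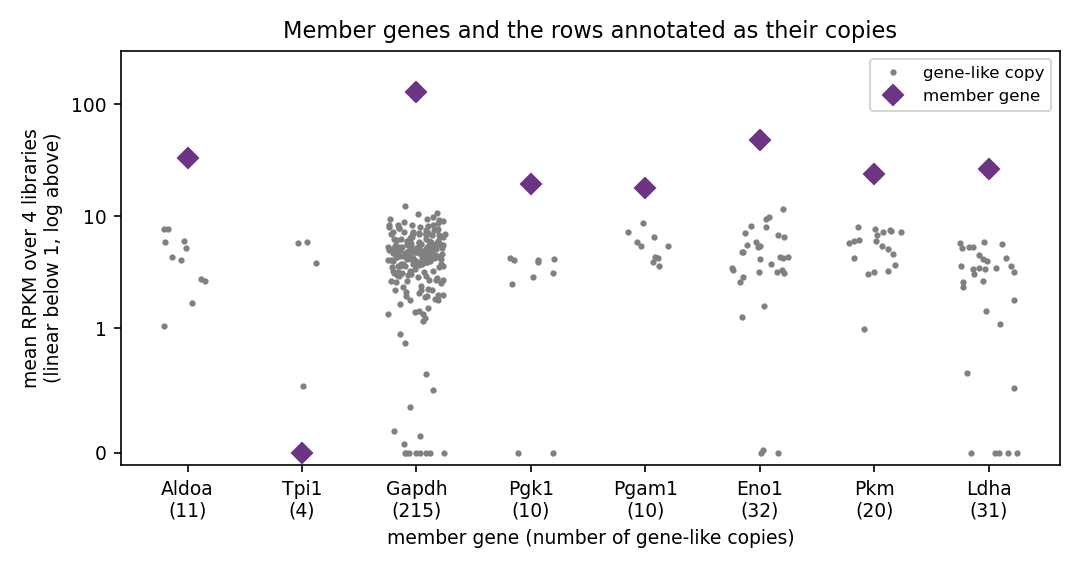
Mean RPKM over the 4 libraries (linear below 1, log above) of each member (diamond) and of the rows annotated as its copies (points, number in parentheses). The 7 members with counts stand above all of their copies, and Tpi1 is listed at 0.

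Tpi1 (chromosome 4, 157328375 to 157331905, minus strand), the isomerase of the triose phosphates, was the exception. It had 0 counts in all 4 libraries. By counting error alone this allows up to 0.348 to 0.387 RPKM, beside 11.8 RPKM as the lowest value of any other member. That bound holds only if reads of Tpi1 could be counted, which is not known, so it is no limit on the transcript. Of all protein-coding rows 1091 (4.82%) were at 0 in all 4 libraries, and of the 17381 with an ordinary gene symbol 278 (1.60%) were. Tpi1 was not in the authors' deposited table of comparisons and could not be tested.

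The zero was shared by the neighbours of Tpi1. From 157264383 to 157331905 on chromosome 4, a stretch of 67.5 kb, 7 consecutive rows were at 0 in all 4 libraries: Grcc10, Atn1, LOC102553919, Eno2, Lrrc23, Spsb2 and Tpi1. The rows on either side had counts, with 43, 64, 113 and 79 for Ptpn6 below the stretch and 23, 50, 18 and 94 for Usp5 above it. Gapdh, on the same chromosome, was among the most abundant genes. The zero of Eno2 among the isozymes thus falls in the same stretch. Spsb2 overlaps Tpi1 by 6 bases on the opposite strand, the one overlap of any member with another row.

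A matching set of rows was listed on chromosome 9. There 8 rows described as like Usp5, Tpi1, Spsb2, Lrrc23, Eno2, Atn1, LOC102553919 (by position) and Grcc10 follow in reverse order, each on the strand opposite to its partner. In 6 of the 8 pairs the lengths agreed within 2%, and in 2 of these they were equal. They did not agree for the pair of Tpi1 itself (1448 against 1601 bases) or for that of Usp5 (3210 against 2548 bases). Of the chromosome 9 rows 6 were at 0 in all 4 libraries, over 64.0 kb from 20217278 to 20281274. The triosephosphate isomerase-like row, LOC100911515 (chromosome 9, 20213596 to 20217279, plus strand), had 0 and 0 counts in MSC-Exo against 14 and 6 in MSCATV-Exo. That is 1.47 and 0.669 RPKM in MSCATV-Exo, below the olfactory medians of those libraries, and no difference is drawn from it. The other Tpi1-like rows had 15 and 16 against 16 and 55 counts (LOC365156), 11 and 36 against 10 and 44 (LOC678710) and 23 and 0 against 0 and 54 (LOC681129). Whether reads of Tpi1 match both places equally and were dropped was not tested, since no rat genome was used here. The level of Tpi1 in these exosomes is therefore not known from this table.

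**Figure D5:**
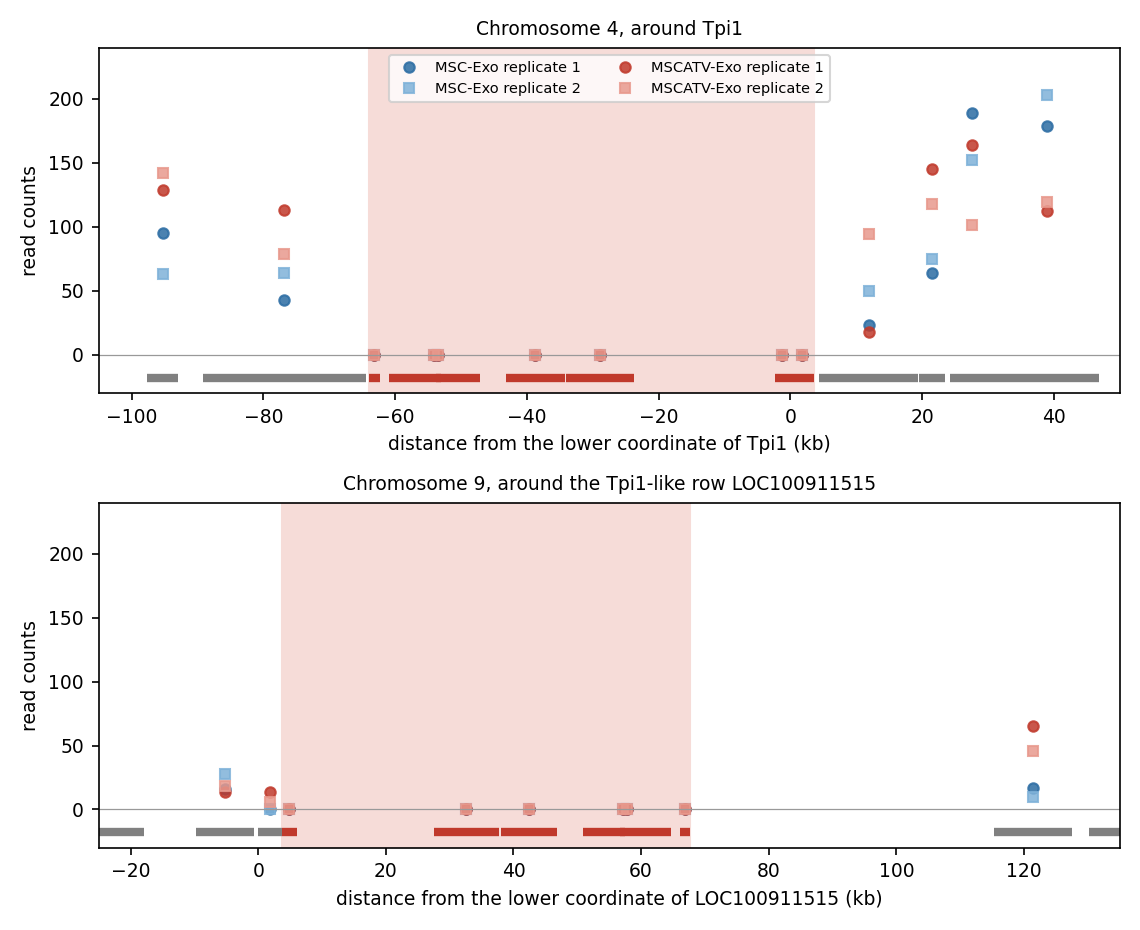
Read counts in each library of the rows around Tpi1 (top, chromosome 4) and around the Tpi1-like row LOC100911515 (bottom, chromosome 9), by distance in kb from the lower coordinate of each, with bars for the rows below and miRNA rows left out. In the shaded stretches 7 and 6 consecutive rows are at 0 in all 4 libraries, while the rows on either side have counts.

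Among the reference genes Hprt1, on chromosome X, was also at 0 in all 4 libraries, and so was LOC103689983, a row on the same chromosome described as hypoxanthine-guanine phosphoribosyltransferase. LOC108351137, a protein-coding row on chromosome 5 with the same description as Gapdh, had 2 and 7 counts in MSC-Exo against 0 and 0 in MSCATV-Exo, near the floor of 3 counts.

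The members did not share 1 pattern across the libraries. Centred on its mean over the 4 libraries, log2 CPM in MSC-Exo replicate 1 was below the mean for 6 of the 7 members and above it for Pgam1, at 0.28. The Euclidean distance of a member's centred log2 CPM from the mean profile of the 7 was smallest for Pkm (0.157), Gapdh (0.223) and Eno1 (0.224) and largest for Ldha (0.713) and Pgam1 (0.789). The genes of at least 20 RPKM nearest to the mean profile, among 597, were Dpysl3 (0.0344), Rplp1 (0.0729), Mtss1l (0.0843), Rack1 (0.0862) and S100a10 (0.0899), where the median gene stood at 0.505. With 4 libraries, which these genes share with the members, the distances are a description.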

How the data were processed

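Exosome RNA of 2 MSC-Exo and 2 MSCATV-Exo libraries was made into libraries with a kit that does not mark the strand, per the labels' protocols. TopHat2 was used with the rat build rn6, also named Rnor_6.0, per the submitters' processing notes. The TopHat2 version, the counter, its rule for reads with several matches and the annotation release are not given in the sources used here. For each gene the authors deposited a raw read count and an RPKM value, which recompute from the counts, the lengths and the sum of gene counts. The authors' deposited comparison table holds mean RPKM, a log2 ratio of the means, a p-value and a q-value. The deposited table of non-coding transcripts names 0 members and was not used further.

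Counts were tested in all 4 libraries with the two-sided quasi-likelihood F test of edgeR 4.0.16 (R 4.3.3) after filterByExpr and with TMM factors, calling genes at a Benjamini-Hochberg adjusted p under 0.05 over 33480 genes, with a common coefficient of variation of 0.559. SE is that of the fitted log2 fold change, with variability shared over genes, so it is not the spread of a gene's own replicates. Log2 CPM used a prior count of 2. The fit was tested on simulated data. The fit was repeated without each library, with a block for the replicate number, with RLE factors or total counts, with no filter or a minimum mean of 1 CPM, with DESeq2 1.42.0, and with limma 3.58.1 on log2(RPKM + 1) and log2(RPKM + 0.1) for genes with a mean of at least 1 RPKM. Scaling to abundant genes, adding the copies to the members and the row pairs around Tpi1 were chosen after seeing the data.

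The members and gene lists were chosen with earlier results of these data known. The rule names all members and isozymes, the 3 highest genes by mean RPKM of each other pathway list, genes passing the test, the 5 copies with most counts and the 5 genes nearest to the mean profile. Some genes that the rule names are not reported here. Other names were chosen after their values were seen. No sequence is printed, since the sequence tables at hand were of mouse.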

Additional observations from a re-analysis of the deposited data

How the results depend on the processing

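No member was called under any of the 14 alternatives. Aldoa, Ldha and Pgam1 kept their direction in all 14. The number of genes called, 0 as reported, was 8 with no filter, 4 with the replicate block, 106 with DESeq2, and 1 to 168 with single libraries left out, where the lone library of a group is assumed to vary like the other group. Deviations of same-numbered libraries did not correlate (r = -0.000516 over 33480 genes). With 2 pairs, and counting error in every gene, this cannot decide whether same-numbered libraries were paired. The members above 0 numbered 2 with the copies added and 3 to 6 otherwise, against 4 as reported. Their median moved to -0.11 with total counts, -0.23 with factors from abundant genes, -0.031 with copies added, -0.10 with limma at either pseudocount, and -0.087 to 0.20 with single libraries left out. Eno1 reversed in sign, at -0.11 with total counts, -0.00449 with no filter, -0.000743 at a mean of 1 CPM, -0.000902 with the replicate block, -0.23 with factors from abundant genes, -0.00819 with copies added, -0.10 with limma at either pseudocount, and -0.13 to 0.13 with single libraries left out. Gapdh reversed to -0.13 with copies added, where most of the summed reads were those of the copies. Pgk1 reversed with single libraries left out (-0.32 to 0.15), as did Pkm (-0.22 to 0.20). The cause was not tested. The 7 tested members had 119 to 1323 counts per library, and 2 libraries a group limit the precision of each spread.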
